A study of Homo sapiens with 4 samples.

Results

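The aryl hydrocarbon receptor (AHR) pathway and the CYP1 enzymes it governs were examined in HepG2 cells, a human hepatocellular carcinoma line. The set held the 7 genes CYP1A1, CYP1A2, CYP1B1, AHR, AHRR, TIPARP and ARNT2, taken by gene name from the 58302 genes of the files, and all 7 were found once. Wild type HepG2 cells were given melatonin at 1 mM or its solvent DMSO, for 24 h or for 48 h, and 1 mRNA-seq library was made for each of the 4 conditions. No library had a replicate, so no p-value for a condition was computed, and a difference between single cultures and an effect of the condition cannot be told apart. In bulk RNA, fewer cells that express a gene and less RNA per cell cannot be told apart either.

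AHR is a ligand-activated transcription factor of the basic helix-loop-helix PAS family. Without ligand it is held in the cytosol in a complex with HSP90 and the co-chaperone p23. With ligand it moves to the nucleus, pairs with ARNT or its relative ARNT2, and binds dioxin response elements near its target genes. The CYP1 genes are its classical targets and encode monooxygenases that oxidize planar aromatic compounds. AHRR and TIPARP are also targets, and their products dampen AHR in a negative feedback. In liver, CYP1A2 is the main enzyme of melatonin 6-hydroxylation, and CYP1A1 and CYP1B1 catalyze the same step, so these genes were both possible responders to melatonin and part of its clearance.

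The dioxin response element has the core GCGTG, and the fuller form TNGCGTG was used here as the extended match. Both strands of the 2000 bases upstream of each start site in the RefSeq promoter table (GRCh38.p14) were searched in hg38, and 5 of the 7 genes had a start site there. The core is also contained in the consensus of the hypoxia-inducible factors, so a match does not tell these factors apart. CYP1A1 had 11 core matches, of which 5 were extended. Over all 35116 start sites searched, 0.726% had at least 11 core matches and 0.0541% had at least 5 extended ones. TIPARP had 7 core matches upstream of its outermost start site and AHRR had 4, each with 1 extended match. From the second start site of AHRR there were 8. CYP1A2 had 1 core match and no extended one, and for AHR these letters were not found in this window. A core match was present in 78.5% of all windows and an extended match in 28.6%, so single matches are common. The CYP1A1 window held 62.2% G and C and that of AHR 40.5%, and the core is rich in both bases. A match describes the sequence and no binding was measured.

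The extended matches are shown because CYP1A1 had the most of them among the 5 genes searched. Those of CYP1A1, AHRR and the outermost start site of TIPARP are given, and TIPARP had another at −676 from its innermost start site, from 156675978 to 156676004 of chromosome 3. Each is written 5′ to 3′ on the strand that carries it, with TNGCGTG in capitals and the flanks in lower case. The position in hg38 and the distance in bp from the start site are given in the name. None of them lay in an annotated exon of GENCODE 44.
CYP1A1, chr15:74726897-74726923, plus strand, −1385: aaagttgtatTTGCGTGcctagctcaa
CYP1A1, chr15:74726573-74726599, minus strand, −1061: ccctccccccTCGCGTGactgcgagcc
CYP1A1, chr15:74726498-74726524, plus strand, −986: tgcccaggcgTTGCGTGagaaggaccg
CYP1A1, chr15:74726410-74726436, plus strand, −898: cccggctagcTTGCGTGcgccggcgac
CYP1A1, chr15:74726015-74726041, plus strand, −503: gagtcccggcTCGCGTGagaagcgctg
AHRR, chr5:321672-321698, plus strand, −32: ggcgggcggcTCGCGTGccggggtggg
TIPARP, chr3:156673050-156673076, minus strand, −1530: gggcttcaatTAGCGTGggcatactgg

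In CYP1A1, 3 of the 5 extended matches lay within 190 bases, from 74726410 to 74726599 of chromosome 15 in hg38. GENCODE 44 annotates no gene in this stretch. It is written on the minus strand, which is that of the gene, with the cores in capitals (CACGC is the core on the other strand).
CYP1A1 upstream: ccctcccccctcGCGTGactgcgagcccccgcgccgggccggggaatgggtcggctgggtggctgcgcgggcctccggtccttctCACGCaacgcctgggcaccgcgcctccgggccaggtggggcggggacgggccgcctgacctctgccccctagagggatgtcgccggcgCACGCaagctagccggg

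**Figure D1:**
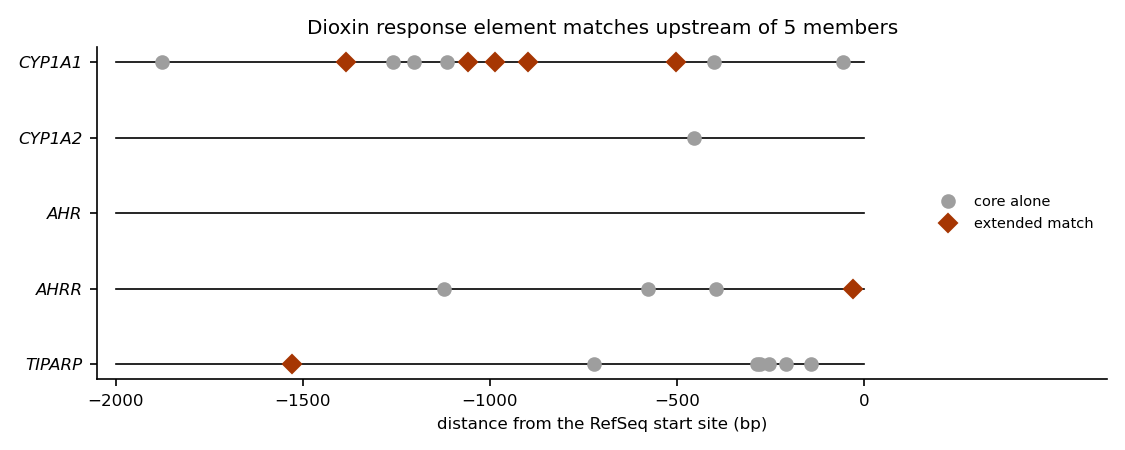
Positions of dioxin response element matches (x axis, distance in bp from the outermost RefSeq start site) in the 2000 bases upstream of 5 genes (rows). Grey circles are the core alone and brown diamonds are extended matches, of which CYP1A1 had 5, AHRR and TIPARP had 1 each and CYP1A2 and AHR had none.

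The deposited values are FPKM, in which the fragments of a gene are divided by its length and by the size of its library. Multiplying by the length gave back the whole number of reads behind each value. Reads on genes summed to between 21616676 and 23086025 per library, and the mitochondrial share was 20% in DMSO and 16.6% in melatonin at 24 h and 9.77% and 11.9% at 48 h. The part of this share in the results was not tested beyond the scalings given below. Intervals are 95% exact intervals of the reads and cover counting error only, and a value from 3 reads is taken as the floor. Ratios are of FPKM, and log2 fold changes are of FPKM plus 1, on which low genes show less than their true change. Genes with an FPKM of 1 or more in one of the compared libraries were tested, and 2-fold on this scale counted as changed. Of 6 hepatocyte markers all were expressed, with ALB at an FPKM between 2717 and 3343. With melatonin at 48 h, TTR changed from 50.6 to 256 and AFP from 1902 to 782. Of 6 markers of other cells, COL1A2 had 0 reads in every library, PTPRC at most 1, CD68 at most 5 and COL1A1 at most 14, and PECAM1 was at an FPKM below 1. The cholangiocyte keratin KRT19 had an FPKM of 62.1 in DMSO and 33.2 in melatonin at 24 h and of 34.5 and 18.8 at 48 h, the reverse of the order of CYP1A1, and its part in the results was not tested.

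Of the 3 genes of the set that were tested, CYP1A1 alone changed 2-fold, and it rose in both comparisons with melatonin. CYP1A1 (ENSG00000140465) lies on the reverse strand of chromosome 15, from 74719542 to 74725610 in hg38, and encodes an inducible, largely extrahepatic monooxygenase. Its FPKM was 1.24 with DMSO for 24 h (0.978 to 1.54, 78 reads), 5.55 with melatonin for 24 h (5.01 to 6.14, 387 reads), 4.18 with DMSO for 48 h (3.73 to 4.67, 315 reads) and 12.6 with melatonin for 48 h (11.8 to 13.4, 959 reads). The intervals of no pair of libraries overlapped, and at each time the melatonin library was above its DMSO library.

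The melatonin to DMSO ratio of CYP1A1 was 4.49 (3.51 to 5.8) at 24 h and 3.01 (2.64 to 3.43) at 48 h, which are log2 fold changes of 1.55 and 1.39. Among protein-coding genes tested, 0.191% were at least 2-fold higher with melatonin at 24 h and 1.03% at 48 h, and over genes of every type it was 1.42% and 2.39%. On the TPM scale the shares of protein-coding genes were 0.744% and 1.84%. By log2 fold change, CYP1A1 ranked 2 from the top of 10481 protein-coding genes at 24 h and 27 of 10582 at 48 h. The counting intervals of the ratios at 24 h and 48 h did not overlap, but whether the response differed between the times could not be tested with 1 culture each.

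CYP1A1 also rose with time in culture, and the DMSO library of 48 h lay between both libraries of 24 h. In DMSO the ratio of 48 h to 24 h was 3.38 (2.63 to 4.39), and in melatonin it was 2.26 (2.01 to 2.55). These comparisons share libraries with those of melatonin and are given side by side only. With time, 1.65% of protein-coding genes tested were at least 2-fold higher in DMSO and 0.496% in melatonin. This background depends on the scale, and with TPM the shares were 10.8% and 1.94%. Of the protein-coding genes that changed with time in DMSO, 37.3% were higher at 48 h on the FPKM scale and 92% after rescaling to TPM. In melatonin these shares were 53.6% and 84.3%. The log2 fold change of CYP1A1 between the DMSO libraries was then 1.90 in place of 1.21.

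In the order of levels, CYP1A1 went from the third of the 7 genes with DMSO at 24 h, below AHR and TIPARP, to the first with melatonin at 48 h. FPKM is divided by the gene length of the files, which is 3435 bp for CYP1A1, 6661 for AHR and 5048 for TIPARP. Where the expressed transcripts are shorter than this length, FPKM is too low, so the order between genes is approximate. With DMSO at 24 h, 50% of the 19847 protein-coding genes were lower than CYP1A1. The share was 69.5% with melatonin at 24 h, 65.6% with DMSO at 48 h and 85.2% with melatonin at 48 h.

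**Figure D2:**
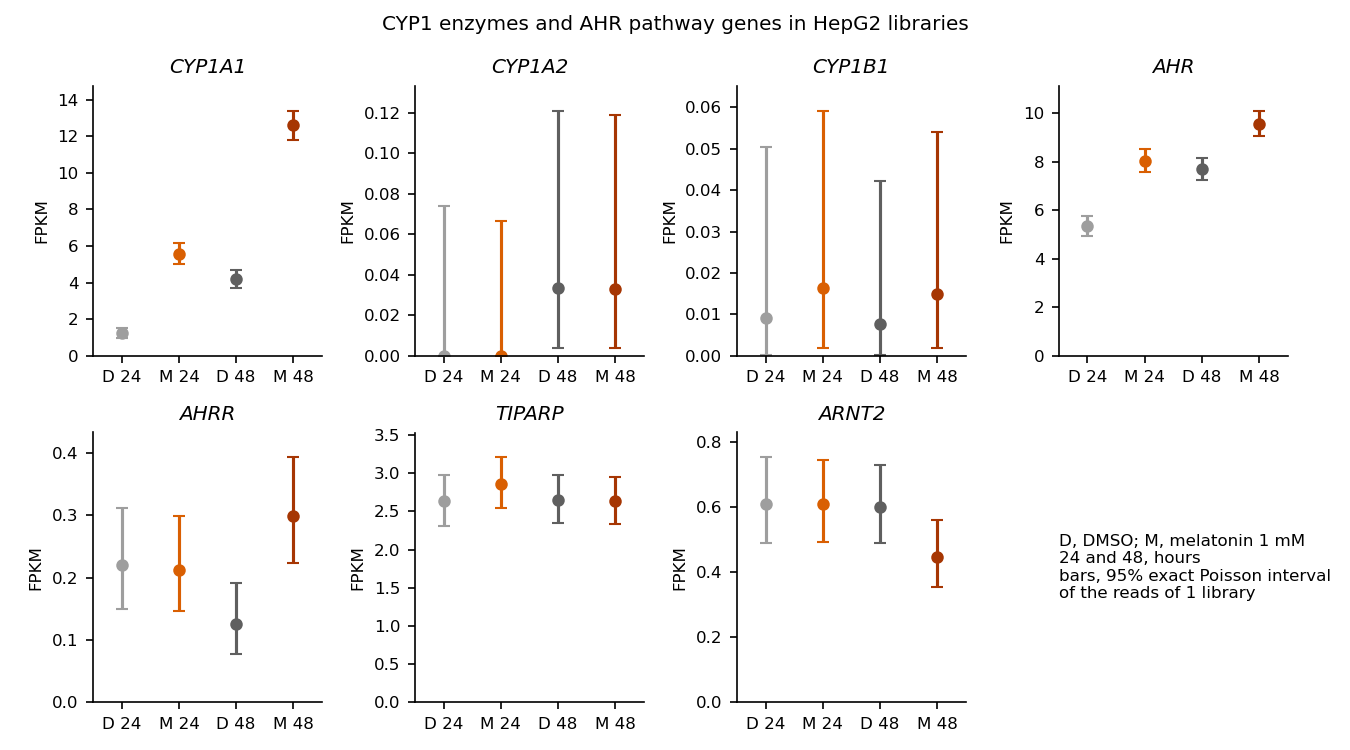
FPKM (y axis, linear from 0, a scale of its own for each gene) of the 7 genes in the 4 libraries (x axis), with 95% exact Poisson intervals as bars. On the FPKM scale CYP1A1 climbs from 1.24 to 12.6 and AHR from 5.35 to 9.54, while TIPARP stays between 2.63 and 2.86.

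CYP1A2 and CYP1B1, the other enzymes of the family, were at or near 0 in every library. CYP1A2 (ENSG00000140505) lies on the same chromosome from 74748844 to 74756202 on the forward strand, and 23233 bases separate it from CYP1A1. No read fell on it in either library of 24 h, and 2 did in each library of 48 h. The upper limits of its FPKM were between 0.0667 and 0.121, so that even a level at those limits would be far below that of CYP1A1. CYP1B1 (ENSG00000138061), an extrahepatic enzyme of estrogen and hydrocarbon oxidation, lies on chromosome 2 from 38066973 to 38109902 on the reverse strand. In each of the DMSO libraries 1 read fell on it, and 2 in each of the melatonin libraries. Both genes were under the floor of 3 reads in all 4 libraries, no fold is given, and a difference was not detectable at this depth. The files also list 3 genes that overlap CYP1B1, on both strands, and the counting rule for such reads was not given in the sources used here.

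Of the 5 other protein-coding genes within 100000 bases of CYP1A1, 3 were tested, and these were CLK3, EDC3 and CSK. Their log2 fold changes were between -0.12 and 0.12 at 24 h and between -0.21 and 0.12 at 48 h. With 0.63% of protein-coding genes tested changed 2-fold at 24 h and 2.39% at 48 h, no call among 3 genes is the background. CYP1A2 and LMAN1L did not reach the FPKM minimum.

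AHR itself stood higher with melatonin at both times, by less than 2-fold. AHR (ENSG00000106546, chromosome 7 from 17298622 to 17346152, forward strand) had an FPKM of 5.35 in DMSO (4.95 to 5.77, 654 reads) and 8.03 in melatonin (7.56 to 8.52, 1085 reads) at 24 h. At 48 h it had 7.68 in DMSO (7.24 to 8.14, 1122 reads) and 9.54 in melatonin (9.05 to 10.1, 1411 reads). The intervals of DMSO at 48 h and melatonin at 24 h overlapped, and those of every other pair were apart.

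The melatonin to DMSO ratio of AHR was 1.5 (1.36 to 1.66) at 24 h and 1.24 (1.15 to 1.34) at 48 h. Its log2 fold changes were 0.51 and 0.28, at rank 333 of 10481 and 2267 of 10582 protein-coding genes. In DMSO its ratio of 48 h to 24 h was 1.44 (1.3 to 1.58), and in melatonin it was 1.19 (1.1 to 1.29). The size of these changes depends on the scale. With TPM the log2 fold change of AHR was 0.71 in place of 0.51 for melatonin at 24 h. Between the DMSO libraries it was 0.97 in place of 0.45, where the median of all genes tested was 0.46. Between the melatonin libraries it was 0.50 in place of 0.22, where that median was 0.23. The antisense gene AC003075.1 overlaps AHR and had between 1 and 12 reads. At these depths an interval above 1 is common. It was found for 34.5% of protein-coding genes tested at 24 h and 34% at 48 h, and with time for 35.4% in DMSO and 22.7% in melatonin.

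Of the feedback genes, TIPARP did not change 2-fold and AHRR was too low to be tested. TIPARP, also called PARP7, is a mono-ADP-ribosyltransferase that modifies AHR and limits its activity. TIPARP (ENSG00000163659, chromosome 3 from 156673235 to 156706770, forward strand) had an FPKM of 2.63 in DMSO (2.31 to 2.98) and 2.86 in melatonin (2.54 to 3.21) at 24 h, and 2.65 (2.35 to 2.97) and 2.63 (2.34 to 2.95) at 48 h, from 244 to 295 reads. The intervals of all 4 libraries overlapped. Its melatonin to DMSO ratio was 1.09 (0.914 to 1.29) at 24 h and 0.994 (0.843 to 1.17) at 48 h, and these upper bounds lie below the lower bounds of CYP1A1 at the same times. With time its ratio was 1.01 (0.845 to 1.2) in DMSO and 0.92 (0.78 to 1.08) in melatonin. On the TPM scale its log2 fold change between the DMSO libraries was 0.44 in place of 0.01, where the median of all genes tested was 0.46. The antisense gene TIPARP-AS1 overlaps TIPARP and had between 5 and 21 reads.

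AHRR competes with AHR for ARNT and represses its targets. AHRR (ENSG00000063438, chromosome 5 from 304176 to 438291, forward strand) had an FPKM of 0.220 in DMSO (0.149 to 0.312, 31 reads) and 0.212 in melatonin (0.146 to 0.298, 33 reads) at 24 h. At 48 h it had 0.125 in DMSO (0.0772 to 0.191, 21 reads) and 0.299 in melatonin (0.223 to 0.393, 51 reads). The libraries of 24 h overlapped and those of 48 h did not. The ratio was 0.963 (0.572 to 1.63) at 24 h and 2.40 (1.42 to 4.20) at 48 h.

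AHRR stayed below the FPKM minimum in every library, so it was not among the genes counted. With time its ratio was 0.567 (0.310 to 1.02) in DMSO and 1.41 (0.894 to 2.26) in melatonin. The files place AHRR over part of PDCD6 on the same strand, which had between 768 and 1160 reads, and reads of the shared region could have been given to either gene.

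ARNT2, a partner of AHR best known from neurons, was low in HepG2 cells. ARNT2 (ENSG00000172379, chromosome 15 from 80404350 to 80597937, forward strand) had an FPKM of 0.612 in DMSO (0.490 to 0.755) and 0.611 in melatonin (0.495 to 0.747) at 24 h, and 0.601 (0.490 to 0.729) and 0.448 (0.354 to 0.560) at 48 h, from 77 to 102 reads. The intervals of all 4 libraries overlapped. Its ratio was 0.999 (0.739 to 1.35) at 24 h and 0.746 (0.547 to 1.01) at 48 h. With time its ratio was 0.981 (0.73 to 1.32) in DMSO and 0.733 (0.536 to 0.999) in melatonin, where 39.8% of protein-coding genes tested had an interval below 1. ARNT, the general partner, was more abundant than ARNT2 in each library, with an FPKM of 3.70 in DMSO and 4.34 in melatonin at 24 h and of 5.66 and 4.76 at 48 h.

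**Figure D3:**
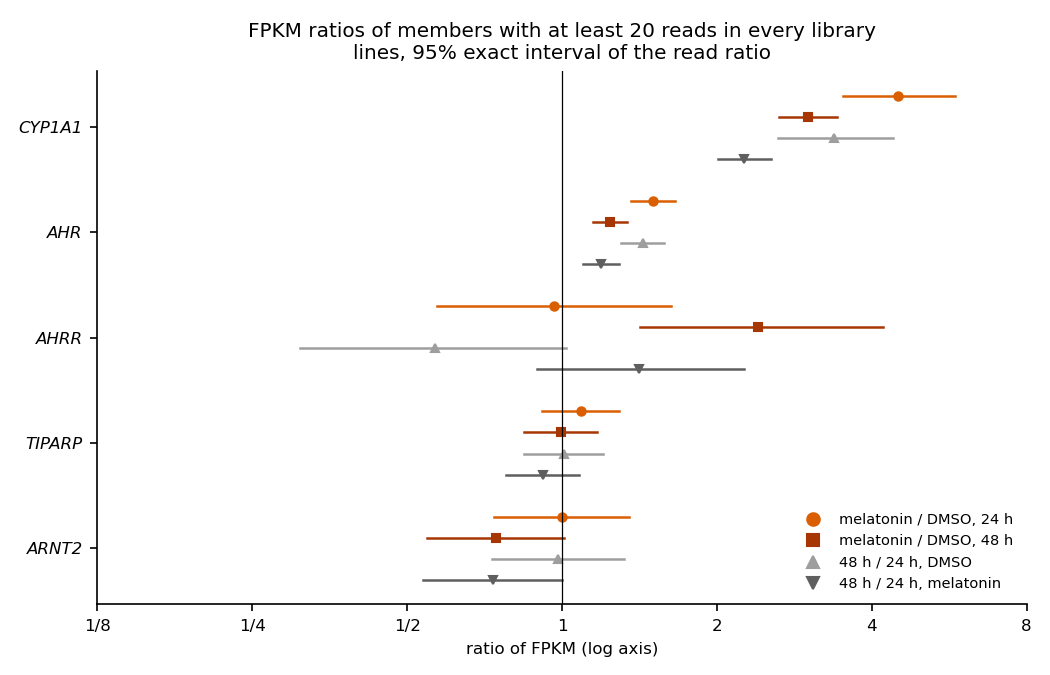
Ratios of FPKM (x axis, log scale) for the 5 genes with enough reads, comparing melatonin with DMSO at 24 h (circles) and 48 h (squares) and 48 h with 24 h in DMSO (upward triangles) and melatonin (downward triangles). Lines are 95% exact intervals of the read ratio, with CYP1A1 at 4.49 and 3.01 and AHR at 1.5 and 1.24 for melatonin, while the lines of TIPARP cross 1.

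Of the 7 genes, 3 reached the FPKM minimum, and 1 of these, CYP1A1, changed 2-fold at each time, against 0.63% of protein-coding genes tested at 24 h and 2.39% at 48 h. AHRR and ARNT2 were above the floor but below the minimum, and CYP1A2 and CYP1B1 were under the floor. By the interval of the read ratio, CYP1A1 and AHR were above 1 at 24 h, and CYP1A1, AHR and AHRR at 48 h, of which AHRR was not tested. Among protein-coding genes tested, 34.5% had an interval above 1 at 24 h and 34% at 48 h, and 23.2% and 36.5% had one below 1. None of the 3 tested genes of the set had an interval below 1.

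A wider list of 43 genes of the pathway and of melatonin handling was set beside the 7. Of these genes, 27 were tested at 24 h and 26 at 48 h, and none of those tested changed 2-fold with melatonin, where 0.63% and 2.39% of protein-coding genes did. Among the genes below the FPKM minimum, UGT1A1 and ALDH3A1 had read ratios beyond 2-fold, given below. The median log2 fold change of the tested genes of this list was 0.00 at 24 h, against 0.04 over all protein-coding genes tested. At 48 h it was -0.16, against -0.01. By the interval of the read ratio, 7 of the tested genes were above 1 and 9 below at 24 h, and 5 were above and 15 below at 48 h. The shares over all protein-coding genes tested were 34.5% above and 23.2% below at 24 h and 34% and 36.5% at 48 h, and the counts of the smaller lists below are to be read against them. Of the 9 genes below 1 at 24 h, 4 were at or above 1 on the TPM scale, with ratios of 1.04 for NQO1, 1.05 for CREBBP, 1.02 for EPAS1 and 1 for SP1.

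The HSP90 genes of the cytosolic complex that holds AHR were abundant. HSP90AB1 had an FPKM of 961 in DMSO and 800 in melatonin at 24 h and of 854 and 713 at 48 h. HSP90AA1, the inducible form, had 279 and 191 at 24 h and 150 and 137 at 48 h, and its ratio of 0.684 (0.672 to 0.697) at 24 h was below those of HSP90AB1 and PTGES3. PTGES3, which encodes p23, had ratios of 0.866 (0.827 to 0.908) and 0.839 (0.801 to 0.880). HSP90 genes have near-identical processed copies, so their counts are uncertain.

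Of the 8 partners and relatives with a PAS domain, 5 were tested, with 1 interval above 1 and 1 below at 24 h and 1 above and 3 below at 48 h. The gene below at 24 h was EPAS1, whose ratio of 0.902 was 1.02 with TPM. HIF1A, the hypoxia-inducible partner of ARNT, had ratios of 0.984 (0.934 to 1.04) at 24 h and 0.755 (0.716 to 0.796) at 48 h. NPAS2, of the circadian clock, had 0.97 (0.887 to 1.06) and 0.653 (0.607 to 0.702). ARNTL, the clock partner also called BMAL1, stayed below the FPKM minimum and its reads went from 44 to 93 with melatonin at 24 h, a ratio of 1.91 (1.32 to 2.8), and from 99 to 106 at 48 h. SIM1 had at most 1 read.

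Among the coactivators, NCOA1 had ratios of 1.59 (1.41 to 1.80) at 24 h and 1.38 (1.24 to 1.53) at 48 h. EP300 and CREBBP, which acetylate histones at active genes, had ratios of 0.759 (0.725 to 0.794) and 0.756 (0.719 to 0.795) at 48 h. NCOA2 had ratios of 1.01 (0.935 to 1.1) and 1.05 (0.975 to 1.14). Of the 6 coactivators, 2 had an interval above 1 and 2 below at 24 h, and 1 above and 3 below at 48 h. Both genes below at 24 h, CREBBP at 0.933 and SP1 at 0.89, were no longer below 1 with TPM.

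Of 12 other target genes of AHR, 6 were tested at 24 h, with 2 intervals above 1 and 1 below, and 5 at 48 h, with 1 above and 3 below, too few to stand apart from the shares over all genes. NQO1, a quinone reductase with both AHR and NRF2 as regulators, had an FPKM of 166 in DMSO and 153 in melatonin at 24 h and of 132 and 75.1 at 48 h. Its ratio was 0.920 (0.895 to 0.946) at 24 h, which turned to 1.04 on the TPM scale, and 0.569 (0.551 to 0.589) at 48 h. ALDH3A1, an aldehyde dehydrogenase, was low, and its reads went from 22 to 7 with melatonin at 24 h and from 10 to 2 at 48 h. Its ratio was 0.288 (0.104 to 0.698) at 24 h and 0.198 (0.0210 to 0.927) at 48 h.

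UGT1A1, which conjugates bilirubin, was the target gene nearest to CYP1A1 in its ratio at 24 h, at a much lower level. Its reads went from 9 to 44 with melatonin at 24 h, a ratio of 4.42 (2.13 to 10.3), and from 25 to 47 at 48 h, a ratio of 1.86 (1.12 to 3.15). UGT1A1 and UGT1A6 share their later exons, so the split of reads between them is uncertain, and UGT1A6 had at most 3 reads. Both UGT1A genes were below the FPKM minimum.

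GSTA1 and GSTA2, near-identical glutathione transferases whose reads could be split between them, had intervals across 1 at both times. The ratio of GSTA1 was 1.15 (0.919 to 1.44) and 1.26 (0.726 to 2.23). GSTA1 fell with time in both arms, from an FPKM of 7.75 to 1.12 with DMSO and from 8.9 to 1.41 with melatonin, where 2.78% and 0.429% of protein-coding genes tested were at least 2-fold lower. NFE2L2, which encodes NRF2, had ratios of 1.35 (1.28 to 1.44) and 1.08 (1.03 to 1.14). SLC7A5, an amino acid carrier, had an FPKM of 269 and 278 at 24 h and of 267 and 176 at 48 h, and a ratio of 0.657 (0.645 to 0.670) at 48 h. HES1 had ratios of 0.998 (0.866 to 1.15) and 0.856 (0.766 to 0.956). EREG had at most 17 reads, SERPINB2 at most 2 and IDO1 had 0 in each library.

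POR, the reductase that passes electrons to all microsomal P450 enzymes, was far above CYP1A1 in each library. It had an FPKM of 75.4 in DMSO and 73.6 in melatonin at 24 h and of 103 and 70.2 at 48 h. Its ratio was 0.976 (0.948 to 1.01) at 24 h and 0.685 (0.667 to 0.703) at 48 h, so at 48 h POR and CYP1A1 lay on opposite sides of 1. CYB5A had ratios of 1.06 (0.980 to 1.15) and 1.11 (1.02 to 1.2), and CYB5R3 had 0.815 (0.779 to 0.852) and 0.945 (0.900 to 0.992).

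After 6-hydroxylation melatonin is sulfated, and SULT1A1 had ratios of 1.23 (1.15 to 1.31) at 24 h and 1.53 (1.42 to 1.64) at 48 h, at an FPKM of 10.2 and 12.5 and of 6.35 and 9.71. SULT1A3 had at most 31 reads and has a near-identical copy, so its reads are uncertain. CYP2C19, which demethylates melatonin, had 0 reads in each library. The melatonin receptor genes MTNR1A and MTNR1B had at most 1 read in any library, under the floor of 3. The paper depleted MT1, the receptor encoded by MTNR1A, in HepG2 cells and checked this by RT-qPCR. It reported that splicing changes by melatonin were then weaker. A transcript this low can be missed at this depth, so the reads do not show that MTNR1A is absent. AANAT and ASMT, of melatonin synthesis, had at most 4 reads and 1 read. NQO2, the quinone reductase known as the third melatonin binding site, had an FPKM between 3.22 and 3.49 and ratios of 1.07 (0.966 to 1.19) and 0.951 (0.864 to 1.05). The nuclear receptor gene RORA had ratios of 0.713 (0.620 to 0.820) and 0.714 (0.643 to 0.793).

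**Figure D4:**
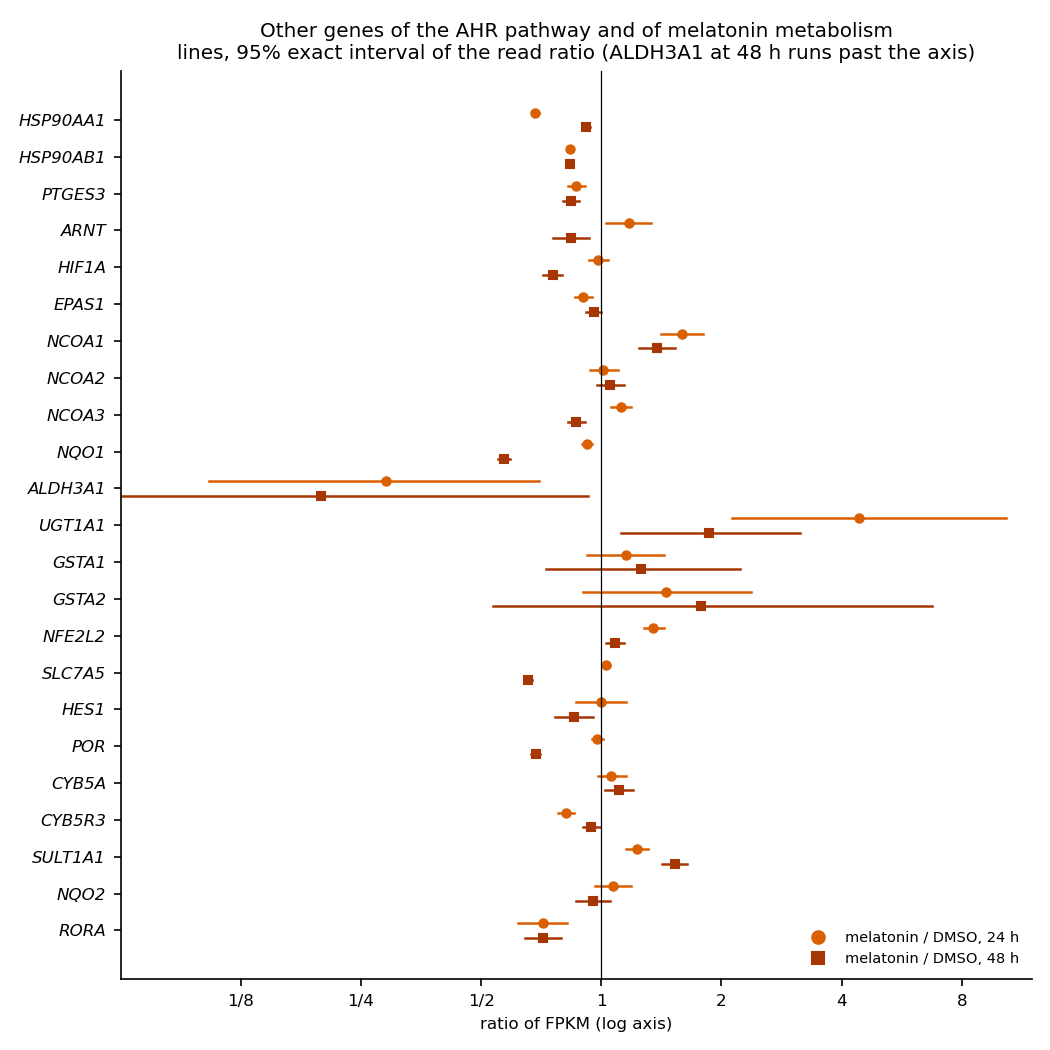
Melatonin to DMSO ratios of FPKM (x axis, log scale) at 24 h (circles) and 48 h (squares) for chosen genes of the wider list (rows). Lines are 95% exact intervals of the read ratio, and not every gene of the list is drawn. Examples are NQO1, ALDH3A1, SLC7A5 and POR, below 1 at 48 h at 0.569, 0.198, 0.657 and 0.685, and UGT1A1, NCOA1, SULT1A1 and NFE2L2, above 1 at both times. Other rows, such as RORA at 0.714 and HIF1A at 0.755, also lie below 1 at 48 h.

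The genes most like CYP1A1 in their pattern were sought among the 11351 protein-coding genes whose highest library held 50 reads or more. Likeness was the Euclidean distance between log2(FPKM + 1) values centred on each gene's mean over the 4 libraries. The nearest were CCL16 at 0.61, LFNG at 0.63, and METRNL, WIPI1 and PRKAR1A at 0.73. LFNG lies on chromosome 7 and all the others on chromosome 17, and the part of this shared chromosome was not tested. CCL16 had an FPKM of 2.81 in DMSO and 5.15 in melatonin at 24 h and of 5.26 and 15.6 at 48 h. LFNG had 0.574 and 2.18 at 24 h and 0.987 and 6.10 at 48 h. PRKAR1A, at a higher level, had 21.8 and 36.8 at 24 h and 37.2 and 71.2 at 48 h. In each of these 3 genes, as in CYP1A1, the melatonin library of 48 h was the highest and the DMSO library of 24 h the lowest, which is what the choice by likeness selects.

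**Figure D5:**
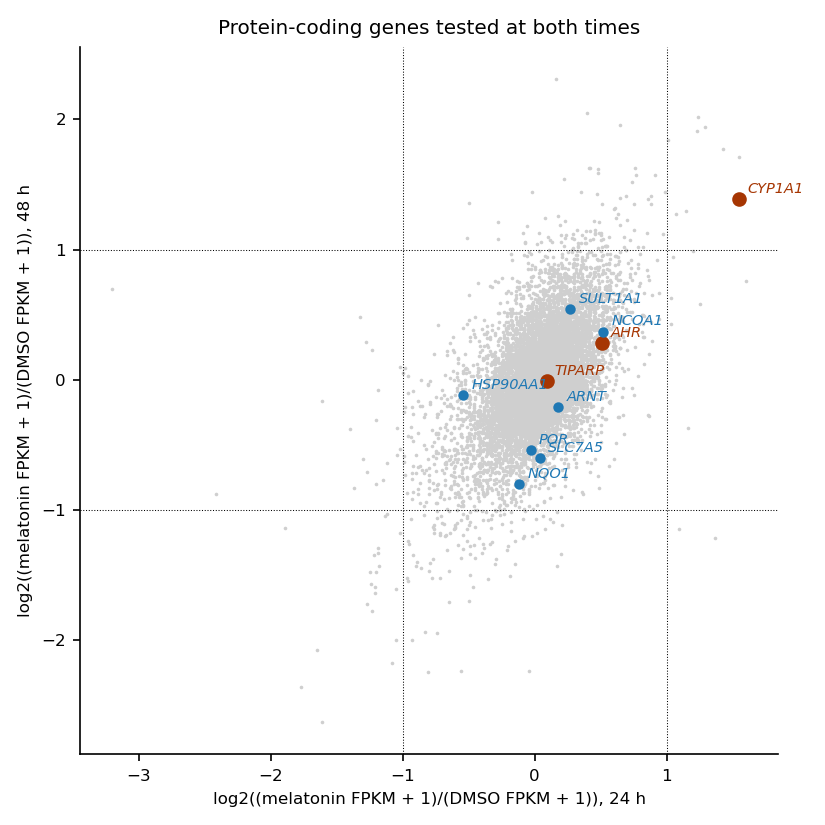
Log2 fold changes of FPKM plus 1 for melatonin over DMSO at 24 h (x axis) and 48 h (y axis) for the 10312 protein-coding genes tested at both times (grey), with the tested genes of the set in brown and 7 other genes of the pathway in blue. Dotted lines mark 2-fold, and CYP1A1 at 1.55 and 1.39 is beyond both while AHR, TIPARP and the 7 blue genes are inside.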

How the data were processed

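HepG2 mRNA-seq libraries, 1 for each of 4 conditions, were used as deposited. By their methods the authors sequenced polyadenylated RNA from both ends and aligned it to hg38 by MapSplice, while the submitters' processing notes list Bowtie2 2.0.6, TopHat2 2.0.9, Cufflinks 2.1.1 and Cuffdiff 2.1.1. The authors deposited FPKM per Ensembl gene with the gene length, and how the library size was set and whether counting used strand are not given in the sources used here. FPKM times length was within 0.01 reads of a whole number of steps for 100% of the values above 0, and these reads gave exact Poisson intervals of single values and exact Clopper-Pearson intervals of ratios, at the library sizes that the FPKM imply. Those sizes were between 0.849 (DMSO at 24 h) and 0.973 (melatonin at 48 h) of the reads on genes. Each size is thus below the reads assigned to genes, for a reason that is not known here. The intervals take each read as an independent count. With the reads on genes as the library size, the CYP1A1 ratio of 48 h to 24 h in DMSO was 3.78 in place of 3.38. A filter of FPKM at least 1 in either library, a pseudocount of 1 and a threshold of 2-fold were used, with no p-value. The members, gene lists and settings were chosen with earlier results of these data known. Named genes were the 7 members, genes of the wider list changed 2-fold with melatonin, ARNT, POR, NQO1, the melatonin receptors and the 5 genes nearest to CYP1A1, and other genes of the lists were named after their values were seen. A gene of the wider list, included in its counts, is not reported here. Positions of genes are those of the files, of which 57532 are in GENCODE 44, and the annotated start and end differ there for AHR, AHRR, ARNT2, CYP1A1 and CYP1A2. Promoter start sites came from RefSeq. The scripts were tested on simulated data. Python 3.11, numpy 2.4.6, pandas 2.3.3, scipy 1.17.1 and matplotlib 3.10.9 were used.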

Additional observations from a re-analysis of the deposited data

Results flagged for a closer look

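For 3 genes of the wider list, the counting interval of the melatonin to DMSO ratio lay above 1 at 24 h and below 1 at 48 h. The difference between the times was not tested, as each condition had 1 culture. ARNT had a ratio of 1.17 (1.03 to 1.33) at 24 h and 0.841 (0.759 to 0.932) at 48 h. NCOA3, a coactivator, had 1.12 (1.06 to 1.19) and 0.864 (0.823 to 0.908). SLC7A5 had 1.03 (1.01 to 1.05) and 0.657 (0.645 to 0.670). None of the 7 genes of the set showed such a turn.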

How the results depend on the processing

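CYP1A1 was the only one of the 7 genes called at 24 h and 48 h under each of the 10 alternatives run. Its log2 fold change was between 1.53 and 2.08 at 24 h and between 1.39 and 1.57 at 48 h. Except on the TPM scale, these settings could not call CYP1A2, CYP1B1, AHRR or ARNT2, which lay below an FPKM of 1 in every library. At such levels 2-fold cannot be reached with a pseudocount of 1, and the pseudocount of 0.1 was run with the FPKM minimum kept. AHRR at 48 h had an FPKM ratio of 2.4 and was not called. Between the DMSO libraries 0 of the 7 were called with an FPKM minimum of 5, because CYP1A1 was not tested there. Of the wider list, 2 genes (NQO1 and SLC7A5, both lower) were called at 48 h with a 1.5-fold threshold. The count of all genes changed was 591 at 24 h and 789 at 48 h. It was 1208 and 1672 with a pseudocount of 0.1, 118 and 324 with an FPKM minimum of 5, 98 and 351 with at least 50 reads, 1569 and 2576 with a 1.5-fold threshold, 1561 and 2511 with TPM, and 66 and 253 for protein-coding genes. Of the last, the share higher at 24 h was 30.3%, or 54.5% with TPM, and at 48 h it was 43.1%, or 54.5% with library sizes without mitochondrial genes. TPM moved the median log2 fold change of the genes tested to 0.17 at 24 h and to 0.46 between the DMSO libraries. Ratios near 1 (AHRR and ARNT2 at 24 h, TIPARP at 48 h) crossed 1 with the scaling. CYP1A2 was under the floor and is left out here. No paired analysis was possible because each condition had 1 library, so no replicate numbers could pair cultures within a time. A fit of melatonin and time as additive terms, which would take the difference between the times as error, was not run. With 1 library a condition, no replicate could be left out.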
